A study of Pongo abelii with 8 samples.

Results

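The genes described here encode enzymes that move nucleosomes or alter histone tails, and they were read from the microarrays of Sumatran orangutan induced pluripotent stem cells (iPSCs) and the skin fibroblasts they came from. The rule goes by symbol: it takes every gene named SMARCA to SMARCE, CHD, HDAC, SIRT, KDM with a family letter, or KMT2A to KMT2E that had a probe set assigned to a single gene symbol. It found 54 genes among the 11963 single-symbol genes on the array, read by 119 probe sets, of which 30 genes had several and 24 had 1. For each gene the probe set with the highest mean over all arrays stood for the gene, and the other probe sets are given separately. That mean is weighted toward the iPSC arrays, 6 of the 8, so the choice can favour probe sets that are high in iPSCs. The same choice was made for all genes on the array.

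The series holds 8 arrays, 6 of iPSC colonies and 2 of fibroblasts. The iPSC arrays came from 3 colonies of KB10973, a 29 year old male, and 3 colonies of KB10460, a 43 year old female, and each animal also gave 1 array of its skin fibroblasts, grown from a biopsy of the upper limb. All iPSCs carried retroviral copies of human OCT4, SOX2, KLF4 and c-MYC, were exposed to valproic acid, itself an inhibitor of histone deacetylases, during induction, and were expanded on inactivated mouse feeder cells in a serum replacement medium, whereas the fibroblasts carried no vector and grew in serum without feeders. The cell type, the vectors, the medium and the feeders therefore cannot be told apart, and since the 6 colonies descend from only 2 animals, the p-values reflect how colonies and cultures vary and not how orangutans do. Both donors were recorded as healthy.

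Chromatin remodellers use ATP to slide, evict or restructure nucleosomes, and fall into SWI/SNF, ISWI, CHD and INO80 types. Histone deacetylases remove acetyl groups and are usually found with repression, demethylases remove methyl groups from histone lysines, and the KMT2 enzymes place methyl groups on H3K4, a mark of promoters and enhancers. Many of these proteins act only inside large complexes, and pluripotent cells of mouse are known for a SWI/SNF assembly built around Brg1 (the product of Smarca4) and Baf155 (the product of Smarcc1).

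The arrays were made for human transcripts, so mismatches between an orangutan transcript and its human probes can lower a signal, and levels were compared only within a probe set. All values are log2 expression values after RMA, in which the array medians lay between 3.74 and 3.82 and values near 3 to 4 are close to background. A gene was called when limma, tested two-sided, gave a change over 1.5-fold with an adjusted p under 0.05 (Benjamini-Hochberg, over all 22277 probe sets), and the words higher and lower are kept for called genes. Colonies of the same donor correlated at 0.987 to 0.994 across probe sets and colonies of different donors at 0.986 to 0.989, against 0.843 to 0.885 between an iPSC and a fibroblast array. The fibroblast cultures of the donors correlated at 0.973, below every pair of colonies. KB10973 colonies 1 and 2 were the closest pair.

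The cell type markers followed the labels. Of 6 measured iPSC markers, all 6 were higher in the iPSCs, with a mean of 8.78 to 9.19 per colony against 3.92 in KB10973 and 3.98 in KB10460 fibroblasts. Of 10 fibroblast markers, 9 were lower in the iPSCs and THY1 was higher, and their mean was 4.51 to 4.92 in the colonies against 9.81 in KB10973 and 9.38 in KB10460 fibroblasts. Proliferation markers differed too, with 7 of 8 higher in the iPSCs and the 8 log2 values summing to 62.0 to 64.5 in the colonies, against 44.3 in KB10973 and 37.0 in KB10460 fibroblasts. Of 10 measured germ layer and trophoblast markers, GATA6 and AFP were higher in the iPSCs and the other 8 were not called, and the list summed to 39.6 to 47.0 in the colonies against 34.4 in KB10973 and 36.6 in KB10460 fibroblasts. GATA6, an endoderm factor, ranged from 5.88 to 9.03 among the colonies, against 3.79 in KB10973 and 3.47 in KB10460 fibroblasts. The part of proliferation or of differentiating cells in the changes described here was not tested, and in bulk RNA fewer cells of a type and less RNA per cell cannot be told apart.

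Most changes among the chromatin genes went toward higher values in the iPSCs. Of the 54 genes, 22 were higher in the iPSCs (40.7%, where 15.2% of all single-symbol genes were), 3 were lower (5.56%, where 11.5% of all genes were) and 29 were not called. Their median log2 difference, iPSC minus fibroblast, was 0.21, against -0.00 over all genes. The called increases ran from 0.60 for SIRT4 to 3.47 for CHD7, and 17 of the 22 passed 2-fold. All 6 colonies lay above both fibroblast arrays for 24 genes (44.4%, against 23.6% of all genes) and below both for 6 (11.1%, against 19.7%). A mean level over 4 was reached by 42 of the 54 genes (77.8%, against 55.1% of all genes), and of the 12 below it only SIRT4 was called. That mean is weighted toward the iPSC arrays, 6 of the 8. Few higher calls below 4 are therefore partly built in.

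**Figure D1:**
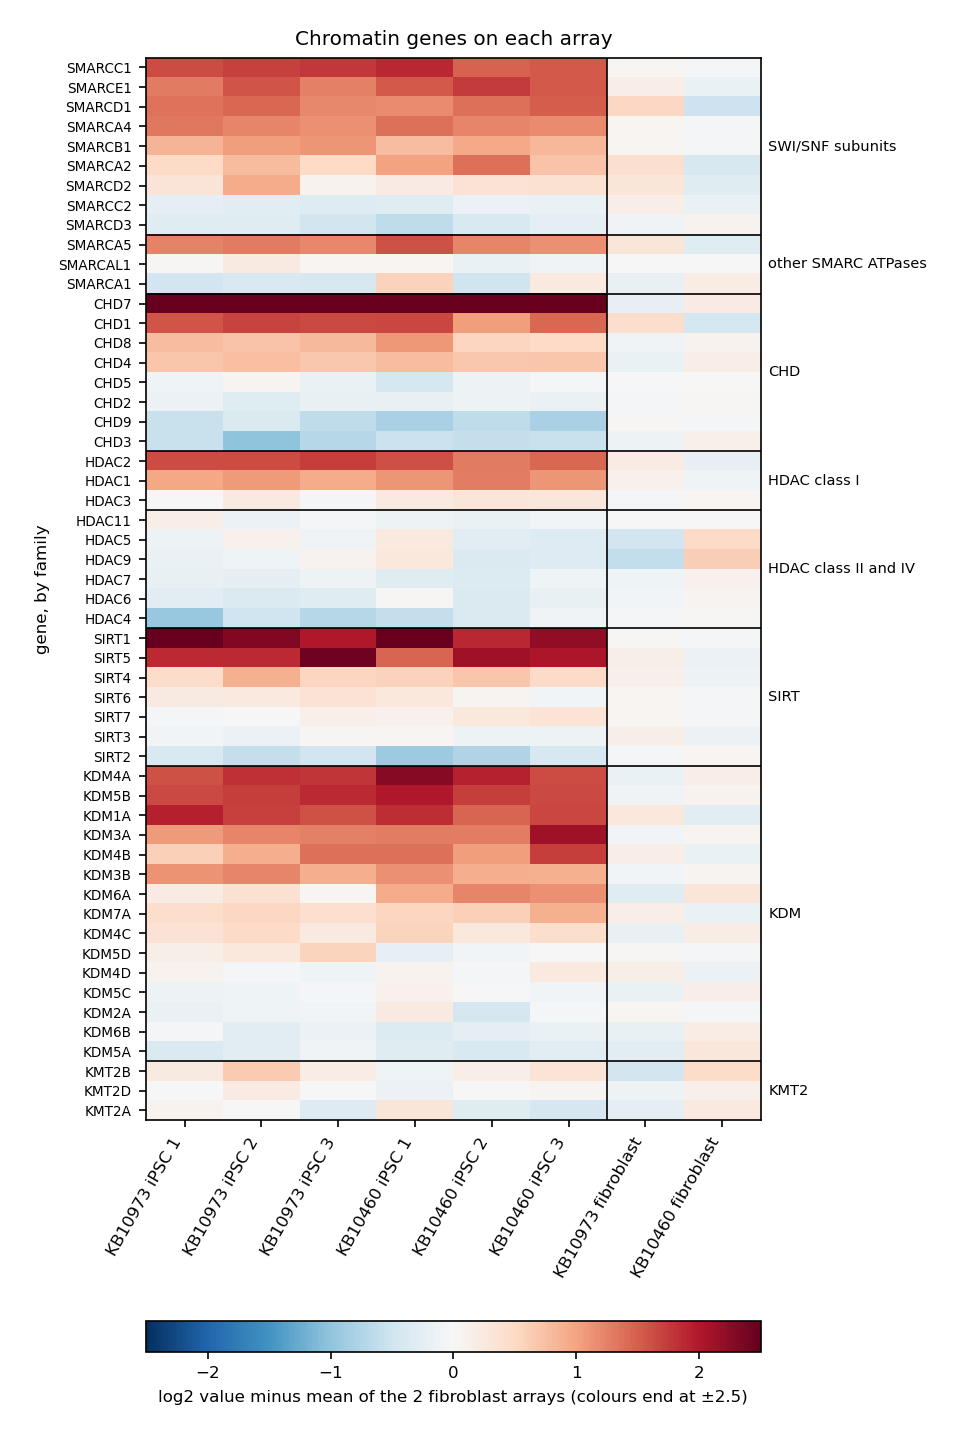
Each row is a gene of the 54 (1 probe set each, grouped by family) and each column an array, with 6 iPSC colonies on the left and 2 fibroblast cultures on the right. Colour shows the log2 value minus the mean of both fibroblast arrays. Red rows such as CHD7 and SIRT1 are above that mean in all 6 colonies. By construction the fibroblast cultures lie on opposite sides of it in every row, widely so for HDAC9 (3.24 in KB10973 and 4.48 in KB10460).

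**Figure D2:**
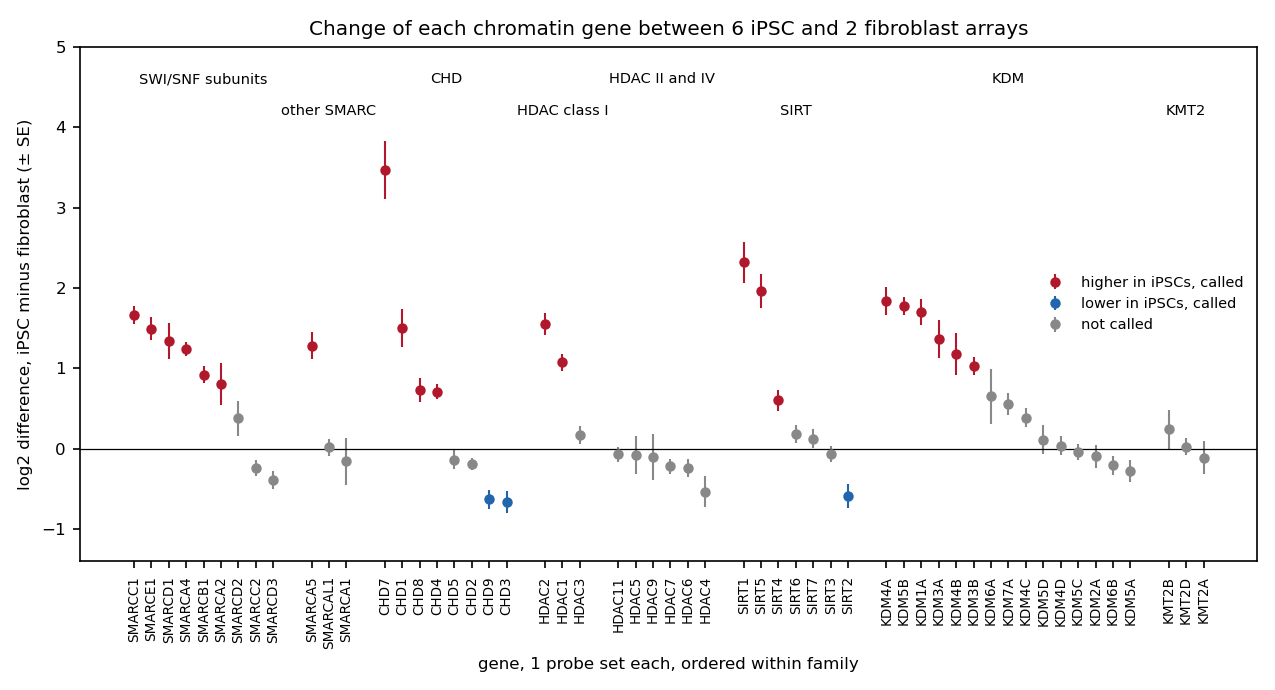
Points give the log2 difference, iPSC minus fibroblast, of the 54 genes with the standard error of the limma fit as bars, from 6 iPSC and 2 fibroblast arrays. Red points are the 22 genes called higher, blue points the 3 called lower (CHD9, CHD3 and SIRT2) and grey points the 29 not called.

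Of the 9 SWI/SNF subunit genes, 6 were higher in the iPSCs and none was lower, with a median difference of 0.92. SMARCC1, which encodes the scaffold BAF155, had log2 values of 8.70 at the lowest, 8.89 at the median and 9.11 at the highest in the iPSC colonies, against 7.27 in KB10973 and 7.17 in KB10460 fibroblasts. Every colony was more than a log2 unit above both fibroblast cultures, and the difference was 1.67 ± 0.11 (SE), or 3.18-fold (limma, adjusted p = 6.2e-06). SMARCE1, the HMG-box subunit BAF57, had values of 6.71, 6.98 and 7.19 (lowest, median and highest colony), against 5.62 in KB10973 and 5.28 in KB10460 fibroblasts. The groups did not overlap, and SMARCE1 was 2.81-fold higher in the iPSCs (difference 1.49 ± 0.14, limma adjusted p = 5.4e-05). SMARCD1, which encodes BAF60A, was tight among the colonies at 6.48, 6.66 and 6.81, against 5.81 in KB10973 and 4.77 in KB10460 fibroblasts. The fibroblast cultures thus lay further apart than the whole range of the colonies, and SMARCD1 was 2.54-fold higher (difference 1.34 ± 0.22, limma adjusted p = 0.0016).

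The alternative ATPases of SWI/SNF, SMARCA4 (BRG1) and SMARCA2 (BRM), were both called higher, with unequal spread. SMARCA4 had values of 8.46, 8.53 and 8.68 in the iPSC colonies, against 7.37 in KB10973 and 7.25 in KB10460 fibroblasts, a difference of 1.24 ± 0.08 (2.37-fold, limma adjusted p = 6.0e-06). SMARCA2 had values of 5.37, 5.61 and 6.24, against 5.26 in KB10973 and 4.48 in KB10460 fibroblasts. Its lowest colony was thus 5.37 and its higher fibroblast culture 5.26, and the call was marginal (difference 0.81 ± 0.26, limma adjusted p = 0.044). With the donor as a block the adjusted p of SMARCA2 was 0.052, and without the KB10460 fibroblast array its difference was 0.42 (limma, adjusted p = 0.41). The call was also lost when KB10460 colony 1 or 3 or KB10973 colony 2 was left out (limma, adjusted p from 0.063 to 0.076).

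SMARCB1, the core subunit lost in rhabdoid tumours, was 1.90-fold higher, with colonies at 6.59 to 6.93 against 5.86 in KB10973 and 5.78 in KB10460 fibroblasts (limma, adjusted p = 1.4e-04). The paralogs of the called scaffold and BAF60 genes did not pass. SMARCC2 (BAF170) had colonies at 4.11 to 4.30, against 4.61 in KB10973 and 4.26 in KB10460 fibroblasts (difference -0.24 ± 0.10, limma adjusted p = 0.12). SMARCD2 (BAF60B) had 4.52 to 5.36, against 4.72 in KB10973 and 4.13 in KB10460 fibroblasts, with overlapping groups. SMARCD3 (BAF60C), a subunit known from heart and muscle, had 3.82 to 4.20, against 4.37 in KB10973 and 4.54 in KB10460 fibroblasts. Here all colonies lay below both fibroblast cultures, but the difference of -0.39 was under the fold threshold (limma, adjusted p = 0.027).

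**Figure D3:**
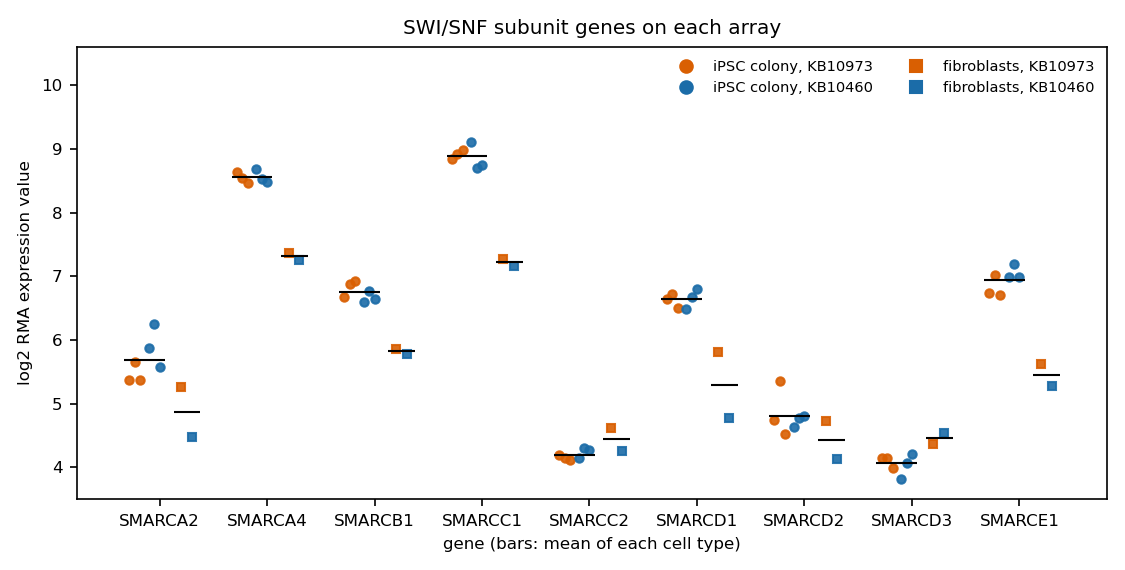
Log2 expression values of the 9 SWI/SNF subunit genes on each array, with iPSC colonies as circles and fibroblast cultures as squares, coloured by donor, and a bar at the mean of each cell type. For SMARCA4, SMARCB1, SMARCC1, SMARCD1 and SMARCE1 the 6 circles stand clear of both squares, whereas those of SMARCA2 begin just above the KB10973 fibroblasts and those of SMARCC2 and SMARCD2 overlap the squares.

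Of the 3 measured SMARC genes outside SWI/SNF, 1 was higher in the iPSCs and 2 were not called. SMARCA5 (SNF2H), the ISWI ATPase that spaces nucleosomes, had values of 7.44, 7.54 and 7.90 in the iPSC colonies, against 6.62 in KB10973 and 5.998 in KB10460 fibroblasts. The groups were well apart, and SMARCA5 was 2.43-fold higher (difference 1.28 ± 0.17, limma adjusted p = 3.4e-04). Its ISWI paralog SMARCA1 (SNF2L), an X-linked gene, had values of 7.53, 7.63 and 8.59, against 7.84 in KB10973 and 8.20 in KB10460 fibroblasts. The fibroblasts of SMARCA1 fell inside the range of the colonies (difference -0.16 ± 0.29, limma adjusted p = 0.76). SMARCAL1, a fork-remodelling helicase of DNA repair, had 4.94 to 5.33 in the colonies, against 5.12 in KB10973 and 5.10 in KB10460 fibroblasts.

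The 8 measured CHD genes, whose proteins carry a chromodomain beside the ATPase, held both the largest increase among the 54 genes and 2 of the 3 decreases: 4 were higher, 2 were lower and 2 were not called. CHD7, the gene mutated in CHARGE syndrome, had values of 6.11, 7.07 and 7.58 in the iPSC colonies, against 3.19 in KB10973 and 3.60 in KB10460 fibroblasts. The fibroblast values were near background, and the difference of 3.47 ± 0.36 corresponded to 11.1-fold (limma, adjusted p = 9.0e-05). CHD1, which binds methylated H3K4 and is needed for open chromatin in mouse embryonic stem cells, had values of 6.08, 6.64 and 6.71, against 5.48 in KB10973 and 4.58 in KB10460 fibroblasts. No colony overlapped the fibroblasts, and CHD1 was 2.84-fold higher (difference 1.51 ± 0.24, limma adjusted p = 0.0011). With the colonies averaged within each donor, which leaves 2 values a group, the adjusted p of CHD1 was 0.057, that of SMARCD1 0.093 and that of SMARCA2 0.20.

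CHD8, a regulator of beta-catenin signalling, was 1.66-fold higher (colonies 6.47, 6.72 and 7.07, against 5.89 in KB10973 and 6.07 in KB10460 fibroblasts, limma adjusted p = 0.0052). The NuRD ATPases CHD4 and CHD3, which occupy the same place in that deacetylase complex, moved in opposite directions. CHD4 had values of 7.40, 7.43 and 7.50, against 6.56 in KB10973 and 6.91 in KB10460 fibroblasts, and was 1.63-fold higher (difference 0.71 ± 0.09, limma adjusted p = 4.0e-04). CHD3 had values of 3.71, 4.14 and 4.17, against 4.60 in KB10973 and 4.84 in KB10460 fibroblasts, and was 1.58-fold lower (difference -0.66 ± 0.14, limma adjusted p = 0.0050). The colonies of CHD4 all lay above, and those of CHD3 all below, both fibroblast cultures. Without the KB10460 fibroblast array CHD3 was no longer called (difference -0.54, limma adjusted p = 0.061), and without the KB10973 fibroblast array CHD4 fell under the fold threshold (difference 0.54). CHD9 had values of 5.97, 6.15 and 6.43, against 6.81 in KB10973 and 6.75 in KB10460 fibroblasts, and was 1.55-fold lower (limma, adjusted p = 0.0037). CHD5, the NuRD paralog of nervous tissue, had 3.01 to 3.53 in the colonies, against 3.45 in KB10973 and 3.46 in KB10460 fibroblasts, all near background, and CHD2 had 2.95 to 3.14, against 3.23 in KB10973 and 3.28 in KB10460 fibroblasts.

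Of the 9 measured zinc-dependent histone deacetylase genes, 2 of the 3 measured in class I were higher in the iPSCs and none of the other 6 was called. HDAC2 had values of 9.95, 10.27 and 10.38 in the iPSC colonies, against 8.85 in KB10973 and 8.46 in KB10460 fibroblasts, and was 2.94-fold higher (difference 1.56 ± 0.14, limma adjusted p = 3.2e-05). HDAC1, its close paralog and partner in the NuRD, SIN3 and CoREST complexes, had values of 9.18, 9.32 and 9.51, against 8.35 in KB10973 and 8.14 in KB10460 fibroblasts, and was 2.11-fold higher (difference 1.07 ± 0.10, limma adjusted p = 5.5e-05). For both genes every colony was above both fibroblast cultures by more than the range of the colonies. HDAC3, the catalytic subunit of the NCoR and SMRT complexes, had values of 6.03, 6.28 and 6.36, against 6.004 in KB10973 and 6.12 in KB10460 fibroblasts, and was not called (difference 0.17 ± 0.11, limma adjusted p = 0.33).

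None of the 6 measured class II and class IV genes passed the limma test, with differences from -0.53 to -0.07. An unadjusted p under 0.05 in limma was found for 2 of them and for 32 of all 54 genes, and the share over all genes on the array is not given. HDAC4, which shuttles between nucleus and cytoplasm, had values of 3.08, 3.49 and 3.94, against 4.001 in KB10973 and 4.07 in KB10460 fibroblasts. All colonies of HDAC4 lay below the fibroblasts in a low range of signal (difference -0.53 ± 0.19, limma adjusted p = 0.070). HDAC7 had 5.58 to 5.81, against 5.81 in KB10973 and 6.04 in KB10460 fibroblasts, and HDAC6, the tubulin deacetylase, had 4.45 to 4.83, against 4.74 in KB10973 and 4.89 in KB10460 fibroblasts. For HDAC5 and HDAC9 the fibroblasts of the donors lay on either side of the colonies. HDAC5 had 6.05 to 6.61 in the colonies, against 5.89 in KB10973 and 6.85 in KB10460 fibroblasts, and HDAC9 had 3.51 to 4.12, against 3.24 in KB10973 and 4.48 in KB10460 fibroblasts. HDAC11 had 3.66 to 3.99, against 3.83 in KB10973 and 3.84 in KB10460 fibroblasts.

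Of the 7 sirtuins, NAD-dependent deacylases, 3 were higher, 1 was lower and 3 were not called. SIRT1, the main nuclear deacetylase of the family, had values of 6.86, 7.24 and 8.002 in the iPSC colonies, against 5.01 in KB10973 and 4.95 in KB10460 fibroblasts. The colonies spread over more than a log2 unit, but all lay above the fibroblasts, and SIRT1 was 5.00-fold higher (difference 2.32 ± 0.26, limma adjusted p = 1.3e-04). SIRT5, a mitochondrial enzyme that removes succinyl and malonyl groups, had values of 5.10, 5.58 and 6.06, against 3.79 in KB10973 and 3.48 in KB10460 fibroblasts, and was 3.89-fold higher (difference 1.96 ± 0.21, limma adjusted p = 1.1e-04). SIRT4, another mitochondrial member, had values of 3.93, 4.03 and 4.37, against 3.60 in KB10973 and 3.36 in KB10460 fibroblasts, a call close to background and to the fold threshold (1.52-fold, limma adjusted p = 0.0058). SIRT2, which is largely cytoplasmic and deacetylates tubulin, was lower: 5.01, 5.37 and 5.53 in the colonies, against 5.86 in KB10973 and 5.96 in KB10460 fibroblasts. Its groups did not overlap, but its difference of -0.59 ± 0.14 (limma, adjusted p = 0.013) was at the fold threshold, and SIRT2 and SIRT4 each lost the call when single arrays were left out, for both genes the KB10460 fibroblasts or colony 2 of either donor, and for SIRT2 also KB10460 colony 1. SIRT3, SIRT6 and SIRT7 differed by -0.07, 0.18 and 0.13.

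The demethylase genes were the largest family, with 15 measured, of which 6 were higher and none was lower, and a median difference of 0.56. KDM1A (LSD1), the amine oxidase of the CoREST complex that acts on H3K4, had values of 7.69, 7.92 and 8.16 in the iPSC colonies, against 6.49 in KB10973 and 5.96 in KB10460 fibroblasts, and was 3.26-fold higher (difference 1.70 ± 0.16, limma adjusted p = 4.6e-05). The other called members were JmjC enzymes. KDM4A, which removes methyl groups from H3K9 and H3K36, had values of 5.97, 6.19 and 6.65, against 4.22 in KB10973 and 4.54 in KB10460 fibroblasts, and was 3.58-fold higher (difference 1.84 ± 0.17, limma adjusted p = 4.6e-05). KDM5B, an H3K4 demethylase, had values of 6.88, 6.97 and 7.24, against 5.14 in KB10973 and 5.33 in KB10460 fibroblasts. The colonies of KDM5B fell in a narrow band far above the fibroblasts, and the gene was 3.42-fold higher with the smallest adjusted p of the 54 genes (difference 1.77 ± 0.11, limma adjusted p = 3.4e-06).

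The H3K9 demethylases KDM3A and KDM3B were also higher. KDM3A had values of 5.01, 5.22 and 6.06, against 3.88 in KB10973 and 4.02 in KB10460 fibroblasts (2.58-fold, limma adjusted p = 0.0020), the highest value being that of KB10460 colony 3 alone. KDM3B had values of 7.95, 8.08 and 8.29, against 6.99 in KB10973 and 7.14 in KB10460 fibroblasts (2.04-fold, limma adjusted p = 1.3e-04). KDM4B was the most variable of the called demethylases, with 6.29, 6.90 and 7.41, against 5.86 in KB10973 and 5.51 in KB10460 fibroblasts (2.26-fold, limma adjusted p = 0.0079). Its colonies stayed above both fibroblast cultures, but without the KB10460 fibroblast array it was not called (difference 1.00, limma adjusted p = 0.080). KDM4C and KDM7A had all colonies above the fibroblasts and adjusted p-values of 0.039 and 0.013 in limma, with differences of 0.39 and 0.56 that were under the fold threshold. The KDM7A colonies lay at 4.39 to 4.86, against 4.14 in KB10973 and 3.81 in KB10460 fibroblasts. The remaining demethylases KDM2A, KDM4D, KDM5A, KDM5C, KDM5D and KDM6B had differences between -0.28 and 0.11 and overlapping groups, and KDM6A, an H3K27 demethylase, had 0.65 ± 0.34 (limma, adjusted p = 0.20). With the donor as a block the same KDM6A difference had a standard error of 0.13 and was called higher (limma, adjusted p = 0.0044).

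None of the 3 measured KMT2 methyltransferase genes was called, and none had an unadjusted p under 0.05 in limma. KMT2A (MLL1) had values of 4.94, 5.21 and 5.66 in the iPSC colonies, against 5.13 in KB10973 and 5.60 in KB10460 fibroblasts. KMT2B had 4.31, 4.63 and 5.07, against 3.97 in KB10973 and 4.88 in KB10460 fibroblasts. KMT2D had 3.43, 3.58 and 3.77, against 3.45 in KB10973 and 3.70 in KB10460 fibroblasts, near background. For all 3 genes the fibroblast cultures lay within or across the range of the colonies.

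Probe sets of the same gene often disagreed. Of the 119 probe sets, 37 were higher, 3 were lower and 79 were not called (12.2% of all probe sets on the array were higher and 9.6% lower), and 48 had a mean level not over 4, of which 3 were called. This mean too is weighted toward the iPSC arrays, so few higher calls below 4 are partly built in. Called and uncalled probe sets occurred together in 15 of the 30 genes with several, and in none of these genes was a probe set called in each direction. How often such mixed calls occurred among all genes on the array with several probe sets is not given. Whether the disagreement is particular to these genes therefore cannot be told. SMARCA4 had 5 of 8 probe sets higher, with differences from 1.02 to 1.58, while the 2 probe sets near 3 gave -0.03 and -0.02. The chosen SMARCA4 and KDM3B probe sets are of a type that can also bind transcripts of other genes. Whether the other called probe sets of these genes bind only their own gene was not tested. SMARCC1 had 3 of 4 higher (1.67, 1.92 and 1.47, with 0.56 in the fourth), KDM5B 3 of 4, SMARCA5 all 3, and KDM3B and KDM4A both of theirs.

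In other genes the call rested on few of the probe sets. SIRT5 was called on 1 of 4, with -0.06 to 0.11 in the others at levels of 3.27 to 4.24 in the colonies, and CHD7 on 1 of 2, with 0.06 in a probe set that read 3.03 to 3.26 in the colonies. SMARCD1 and SMARCB1 each had a second probe set at background, with differences of -0.00 and -0.08. SMARCE1 was different in that its second probe set had a clear signal, 5.90 to 6.77 in the colonies against 6.12 in KB10973 and 5.87 in KB10460 fibroblasts, and did not pass (0.27 ± 0.21, limma adjusted p = 0.41). SMARCA2 was called on 2 of 6, with differences of 0.81 and 1.42, and KDM4B on 1 of 5, although another of its probe sets had 1.19 ± 0.51. CHD4 was called on 2 of 3, and SIRT4, CHD3 and CHD9 on 1 each, of 2, 2 and 3. KDM6A, called on the chosen probe set only with the donor as a block, was called higher on another (0.66 ± 0.20, limma adjusted p = 0.031). When all probe sets of a gene were averaged, 17 genes were higher and 1 was lower. The shares over all genes under this averaging are not given, so these counts cannot be set against the array.

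**Figure D4:**
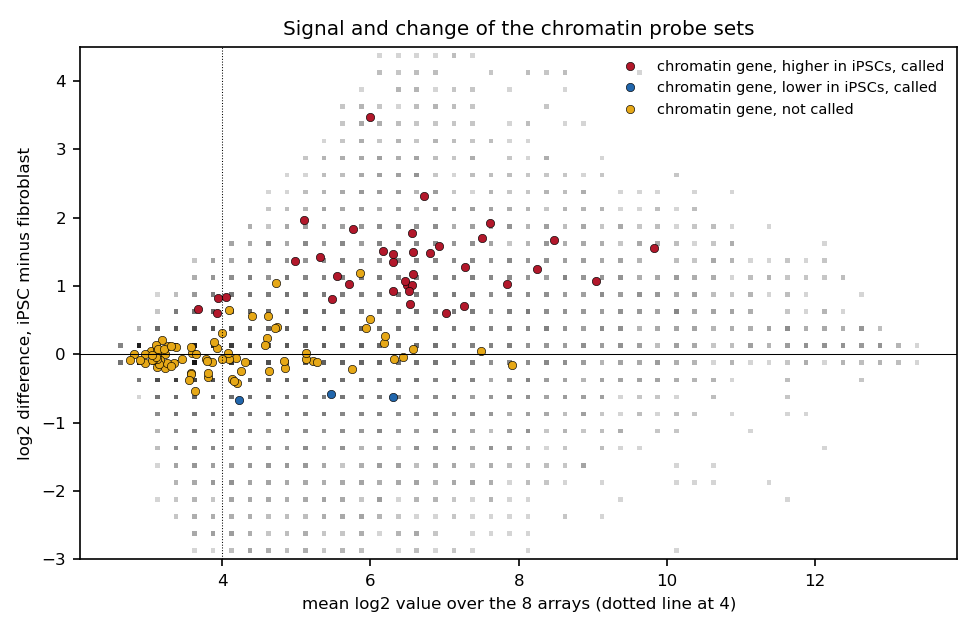
Each circle is a probe set of the 54 genes, placed by its mean log2 value over the 8 arrays (horizontal) and its log2 difference, iPSC minus fibroblast (vertical), over grey squares that bin all 22277 probe sets and are darker where more fall. The vertical axis ends at -3 and 4.5, so more strongly changed bins are not shown, and of the 48 circles at or left of the dotted line at 4 only 3 are called. The mean is weighted toward the iPSC arrays, 6 of the 8.

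The complexes that these enzymes work in were read through 103 measured partner genes in 12 lists. Each partner was read from its probe set with the highest mean over all arrays, and any other probe sets of these genes were not examined. Of these, 33 were higher in the iPSCs (32.0%, where 15.2% of all genes were), 6 were lower (5.83%, where 11.5% were) and 64 were not called, with a median difference of 0.20. Among 15 further BAF and PBAF subunits, 5 were higher and none was lower, led by the actin-related subunit ACTL6A (6.22, 6.31 and 7.06 in the colonies, against 4.94 in KB10973 and 4.39 in KB10460 fibroblasts, difference 1.81) and the DNA-binding subunit ARID1A (1.16). Of 8 NuRD partners, 4 were higher and 1 was lower. The methyl-CpG binding protein MBD2 had the largest of these differences, 3.18, with colonies at 6.40, 6.64 and 7.17, against 3.48 in KB10973 and 3.54 in KB10460 fibroblasts, and the histone chaperone RBBP4 had 1.68.

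HDAC1 and HDAC2 also act in SIN3 and CoREST, and HDAC3 in NCoR and SMRT. Of 8 SIN3 partners 3 were higher, with SAP30 at 1.15 and SAP130 at 0.86, whereas none of 5 CoREST partners and none of 3 NCoR and SMRT partners was called. Of 6 ISWI partners 1 was higher, BPTF (1.36), and 1 lower, BAZ1A (-0.97). In the INO80, SRCAP and TIP60 group 5 of 10 were higher, including the AAA+ ATPases RUVBL2 (1.90) and RUVBL1 (1.46). The KMT2 enzymes themselves were not called, but 4 of the 11 COMPASS partner genes were higher, with PSIP1 at 2.15 and ASH2L at 1.47, and 1 was lower.

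Enzymes of related function outside the named families were mixed. Of 11 histone acetyltransferases 2 were higher, including KAT7 (1.75), and KAT2B was lower (-1.54). Of 11 other histone methyltransferases 4 were higher, led by the H3K9 enzymes SETDB1 (1.46) and EHMT2 (1.39). Of 8 other JmjC proteins 2 were higher and 1 was lower, and JARID2, a Polycomb cofactor with a JmjC domain that lacks demethylase activity, had 9.89, 10.13 and 10.48 in the colonies, against 4.95 in KB10973 and 5.57 in KB10460 fibroblasts (difference 4.90 ± 0.20). The second of them was JMJD1C (1.73). Of 7 other remodellers 3 were higher, including HELLS (1.74), which supports DNA methylation, and the recombination factor RAD54L (1.73), and 1 was lower. These counts are descriptions, and no list was tested.

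The iPSCs of the donors were compared with each other, 3 colonies of KB10973 against 3 of KB10460. None of the 54 genes was called in limma (0.142% of all genes were), and 5 had an unadjusted p under 0.05 (9.26%, against 11.8% of all genes). The nearest was KDM6A, an X-linked gene known in human and mouse to escape X inactivation, with 3.80, 3.99 and 3.64 in KB10973 colonies 1 to 3, against 4.52, 4.82 and 4.74 in KB10460 colonies 1 to 3. The donors did not overlap, and the difference was -0.89 ± 0.12 (limma, unadjusted p = 9.6e-05, adjusted p = 0.059). The other KDM6A probe sets had -0.43 and -0.23, also without overlap, although the one with -0.23 read 2.93 to 3.29 in the colonies, at background. The fibroblasts did not repeat the order on every probe set: they had 3.29 in KB10973 and 3.91 in KB10460 on the chosen one, against 3.25 in KB10973 and 3.11 in KB10460 on the one with -0.43. KDM6A was called between donors when KB10460 colony 1 was left out (adjusted p = 0.022) and when limma used a trended, robust prior (adjusted p = 0.020).

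The other sex-linked members were read in the same way. SMARCA1 had 7.55, 7.63 and 7.63 in KB10973 colonies 1 to 3, against 8.59, 7.53 and 8.26 in KB10460 colonies 1 to 3. KB10460 colony 2 thus sat with the KB10973 colonies, and the difference was -0.52 ± 0.24 (limma, adjusted p = 0.52). Another SMARCA1 probe set had 6.22, 6.28 and 6.02, against 7.29, 6.63 and 7.09, with no overlap (-0.83 ± 0.17, limma adjusted p = 0.15). KDM5C, the X-linked H3K4 demethylase, had a donor difference of -0.10, and HDAC6 of -0.13. KDM5D, the Y-linked paralog of KDM5C, had 3.32, 3.45 and 3.74 in the colonies of the male KB10973, against 2.97, 3.12 and 3.16 in those of the female KB10460, all near background (0.42 ± 0.12, limma adjusted p = 0.31), and its fibroblast values were 3.21 in KB10973 and 3.15 in KB10460.

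The last question was whether the change from fibroblast to iPSC differed between the donors, with a single fibroblast array per donor that is assumed to vary like a colony. All 22 genes called higher changed in the same direction in both donors, with a median of 1.18 in KB10973 and 1.64 in KB10460, and so did the 3 lower ones. The same held for all 1813 of the single-symbol genes called higher. The call itself uses both donors, so this agreement is not separate evidence. The change was larger in KB10460 for 16 of the 22 (72.7%), as it was for 70.4% of all genes called higher. In the fibroblasts, 15 of the 22 (68.2%) had a higher value in KB10973 than in KB10460, as did 69.9% of all genes called higher. The proliferation markers averaged 5.53 in KB10973 and 4.62 in KB10460 fibroblasts, and their part in the donor difference was not tested.

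A difference of the change was called for SMARCD1 alone among the 54 genes (3.42% of all genes were called), and 12 genes had an unadjusted p under 0.05 (22.2%, against 17.3% of all genes). SMARCD1 changed by 0.81 in KB10973 and by 1.88 in KB10460, a difference of -1.07 ± 0.22 (limma, adjusted p = 0.047). Its iPSC values averaged 6.62 ± 0.11 in KB10973 and 6.65 ± 0.16 in KB10460 (SD, n = 3 each), and the fibroblasts stood at 5.81 in KB10973 and 4.77 in KB10460. The difference thus rests on 1 fibroblast array against another, with an error taken from the colonies. The call was lost when any colony other than KB10460 colony 1 was left out (limma, adjusted p from 0.077 to 0.11). HDAC9 changed by 0.56 in KB10973 and -0.76 in KB10460 (limma, adjusted p = 0.10), and HDAC5 by 0.44 in KB10973 and -0.59 in KB10460 (limma, adjusted p = 0.15). Both were called in this comparison when KB10460 colony 1 was left out.

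**Figure D5:**
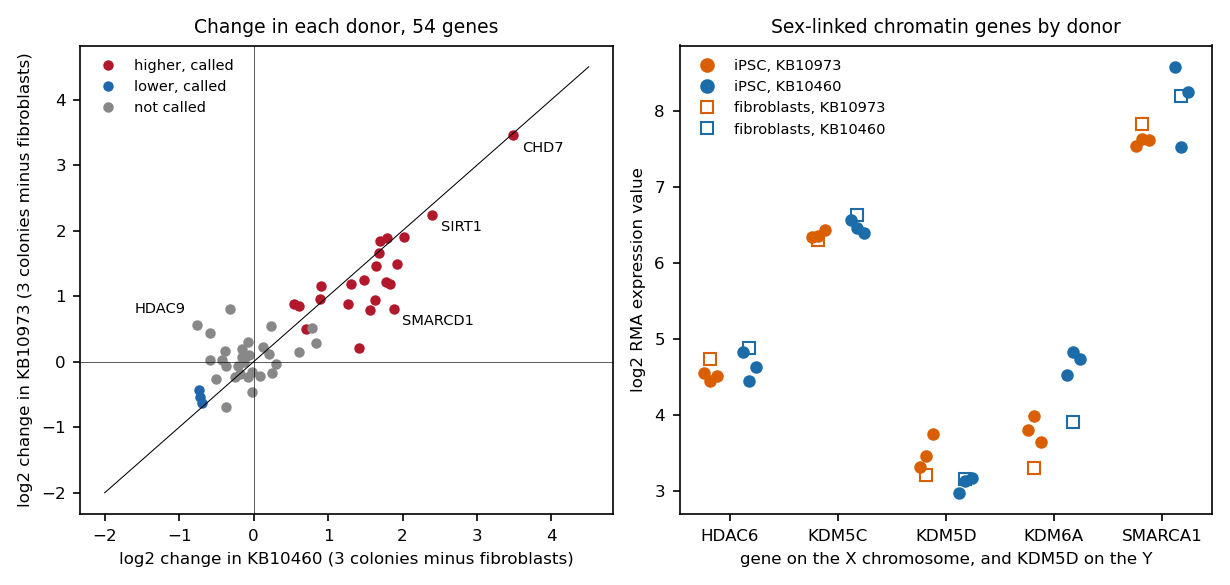
Left, the log2 change of each of the 54 genes in KB10973 (vertical) against that in KB10460 (horizontal), each the mean of 3 colonies minus 1 fibroblast array, with the line of equal change; SMARCD1 lies to the right of the line and HDAC9 above it. Right, log2 values of the X-linked members and Y-linked KDM5D on each array by donor, where the KDM6A colonies of KB10973 (3.64 to 3.99) lie below those of KB10460 (4.52 to 4.82).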

How the data were processed

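RNA of 6 iPSC colonies and 2 fibroblast cultures of 2 orangutans was hybridised to single-colour human arrays. The authors normalized all arrays with RMA in WebArray (version not given in the sources used here) and the deposited values are log2 expression, 1 per array for each of 22277 probe sets. RMA equalizes the arrays' distributions, so a change shared by most transcripts would be removed, and 0 columns lacked a sample. Per the platform annotation, 19070 probe sets carried 1 gene symbol, 1043 several and 2164 none, and only the single-symbol ones were named.

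The model fits used limma 3.58.1 under R 4.3.3, with lmFit, eBayes at its defaults and no block, over all probe sets for iPSCs against fibroblasts (8 arrays), for KB10973 against KB10460 iPSCs (6 arrays) and for the difference of the change between donors (4 groups). A call needed more than a 1.5-fold change and an adjusted p under 0.05 by Benjamini-Hochberg, where the methods of the study name limma with SPLOSH. The number of arrays limits the precision. On simulated data in which 200 of the 22277 probe sets were given a log2 change of 1, the fits recovered 86% for iPSCs against fibroblasts, 78% between donors and 0% for the difference of the change, and at a change of 2 these were 98.5%, 98.5% and 82.5%. The simulated noise came from the spread of colonies within a donor, with no donor difference otherwise. These shares need not hold here, since the fibroblast cultures correlated at 0.973 and colonies of different donors at 0.986 to 0.989. The data also held far more calls than 200, with 2712 probe sets higher and 2138 lower between cell types. The Benjamini-Hochberg cutoff was therefore looser than in the simulation. For the difference of the change, 409 genes were called in the data, so the 0% need not hold either.

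The members, families and partner and marker lists were chosen with earlier results of these data known. Values were given by rule for the 3 members with the largest called change per family and direction, members with discordant probe sets, those called between donors, sex-linked members and the catalytic pairs HDAC1, HDAC2, SMARCA4 and SMARCA2, and up to 2 called genes per partner list were named. Each donor animal gave both cell types, which pairs its arrays, and the donor difference in fibroblasts and in iPSCs correlated at 0.018 across probe sets. All 54 members were matched by symbol to the orangutan assembly NHGRI_mPonAbe1-v2.0, used for chromosome membership only. Alternatives changed the block, variance prior, array weighting, centring, filter, fold threshold, adjustment, probe sets per gene and the arrays included.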

Additional observations from a re-analysis of the deposited data

Results flagged for a closer look

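Among the 6 colonies, 5 of the 54 genes had a single colony set apart from the rest by Dixon's test, where chance alone sets apart about 1 in 20 groups. That rate assumes values from a single group, whereas the colonies came from 2 donors. The share over all genes is not given, so whether these genes stand out cannot be told. KDM3A was at 6.06 in KB10460 colony 3, above 5.01 to 5.23 in the other colonies, and KDM7A was at 4.86 in the same colony, above 4.39 to 4.56. KB10973 colony 2 held CHD3 at 3.71, below 4.01 to 4.17 in the others, and SMARCD2 at 5.36, above 4.52 to 4.80. HDAC11 was at 3.99 in KB10973 colony 1, above 3.66 to 3.78. The fitted difference of the SMARCD1 change, KB10973 minus KB10460, was -1.07 on the log2 scale (limma, adjusted p = 0.047), but it rests on a single fibroblast array per donor (5.81 in KB10973 and 4.77 in KB10460) with an error taken from the colonies. The call was lost when any colony other than KB10460 colony 1 was left out, with a trended prior and with probe sets averaged.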

How the results depend on the processing

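The 22 higher genes became 17 to 24 under the alternatives that read each gene once (19 to 23 with single arrays left out). When every probe set was counted, 37 probe sets were higher. The shares over all genes under the alternatives that read each gene once are not given, so these counts cannot be set against the array. The 3 lower genes became 0 at a fold threshold of 2 and 1 with all probe sets of a gene averaged, and 1 to 4 with single arrays left out (1 without the KB10460 fibroblasts). With the donor as a block, the pairing left 22 higher and 3 lower genes, with SMARCA2 lost and KDM6A gained; with colony number as a block, a number the colonies only share, 0 genes were called between donors. That count became 1 (KDM6A) with a trended, robust prior, and 0 to 1 with single colonies left out. For the difference of the change, the 1 call became 0 with a mean level over 4, 0 with all probe sets averaged, and 0 with KB10973 colonies 1 and 2 averaged, an alternative chosen after seeing the data. It ranged from 0 to 3 with single colonies left out (3 without KB10460 colony 1: SMARCD1, HDAC5 and HDAC9), and with the trended prior HDAC9 replaced SMARCD1. SMARCA2 and SIRT2 lost their calls with array weights (SMARCA2 at an adjusted p of 0.12 in limma, SIRT2 under the fold threshold), SIRT2 with median centring, and CHD1, SMARCD1 and SMARCA2 with colonies averaged within donors. Genes gained a call as well: KDM7A with median centring or without the KB10973 fibroblasts or KB10973 colony 1 or 3, HDAC9 (-0.72) without the KB10973 fibroblasts, and HDAC4 (-0.62) without KB10460 colony 3. With all probe sets averaged, CHD3, CHD9, KDM4B, SIRT4, SIRT5, SMARCA2 and SMARCB1 lost their calls. No called gene changed sign under these settings, but uncalled ones did. With single arrays left out, the difference ran from -0.55 to 0.40 for HDAC5, -0.72 to 0.52 for HDAC9, -0.12 to 0.19 for KDM4D, -0.20 to 0.12 for KDM5C, -0.35 to 0.13 for KMT2A, -0.21 to 0.70 for KMT2B, -0.10 to 0.15 for KMT2D, -0.22 to 0.088 for SIRT3, -0.34 to 0.028 for SMARCA1 and -0.022 to 0.056 for SMARCAL1. Leaving out a fibroblast array gave both ends of these ranges, except for SMARCAL1. KDM5C was at 0.0059 with median centring, KMT2D at -0.042 with probe sets averaged, and SMARCAL1 at -0.0022 with KB10973 colonies 1 and 2 averaged. The donor difference of SMARCD1 ran from -0.12 to 0.041 with single colonies left out. The cause was not tested. Low signal limits the 12 genes whose mean was not over 4.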
